A study of Mus musculus with 2 samples.

Results

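The 33 genes described here encode glucose transporters, glycolytic enzymes, lactate enzymes and carriers, pyruvate dehydrogenase kinases, genes known to be induced by low oxygen, and the HIF alpha subunits. They were chosen by gene symbol, and all 33 were found among the 32285 genes counted in single cells of the mouse cochlea at E16.5 of embryonic life. There was 1 library from wild-type embryos and 1 labelled Emx2Cre;Ptch1f/f, called the mutant library below, each from 8 pooled cochleae of mixed 129/SvEv and C57BL/6N background. In that cross, Cre is expressed from Emx2 and acts on floxed Ptch1, the gene of the Hedgehog receptor that restrains the pathway, so deletion is limited to cells with a history of Emx2 expression. With 1 library per genotype there is no replicate check and no test, genotype cannot be told apart from library, and all intervals cover counting error only.

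Glycolysis turns glucose into pyruvate in the cytosol, and lactate dehydrogenase converts pyruvate and lactate into each other. Under low oxygen the alpha subunits of HIF escape hydroxylation by the EGLN enzymes and destruction through VHL, and HIF then raises transcription of many glycolytic genes and of genes such as Bnip3, Ankrd37 and Egln3. HIF alpha is controlled largely at the level of protein, which RNA counts do not measure. In the cochlea, the stria vascularis is a metabolically active secretory tissue with a dense capillary bed.

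Promoters of members known as HIF targets are shown because HIF binds the core letters ACGTG or GCGTG. Each is the 250 bases before a RefSeq start on GRCm38.p6, 5′ to 3′ on the gene's strand, and capitals mark either motif on either strand. The 2 motifs can overlap each other, and CACGTG reads as ACGTG on both strands. The Ankrd37 window is chr8:45999851-46000100 (minus strand), Bnip3 is chr7:138909507-138909756 (minus), Egln1 is chr8:124949255-124949504 (minus), Ldha is chr7:46845554-46845803 (plus) and Pgk1 is chrX:106186850-106187099 (plus).
Ankrd37: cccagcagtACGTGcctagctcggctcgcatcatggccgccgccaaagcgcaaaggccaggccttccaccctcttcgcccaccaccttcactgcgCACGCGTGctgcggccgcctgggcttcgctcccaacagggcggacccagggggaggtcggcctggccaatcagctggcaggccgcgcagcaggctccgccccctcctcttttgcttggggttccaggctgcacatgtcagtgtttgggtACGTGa
Bnip3: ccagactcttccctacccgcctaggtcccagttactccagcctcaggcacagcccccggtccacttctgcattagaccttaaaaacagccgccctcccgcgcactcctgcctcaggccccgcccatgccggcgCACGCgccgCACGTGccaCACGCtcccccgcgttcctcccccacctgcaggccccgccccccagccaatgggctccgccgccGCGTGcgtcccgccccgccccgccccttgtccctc
Egln1: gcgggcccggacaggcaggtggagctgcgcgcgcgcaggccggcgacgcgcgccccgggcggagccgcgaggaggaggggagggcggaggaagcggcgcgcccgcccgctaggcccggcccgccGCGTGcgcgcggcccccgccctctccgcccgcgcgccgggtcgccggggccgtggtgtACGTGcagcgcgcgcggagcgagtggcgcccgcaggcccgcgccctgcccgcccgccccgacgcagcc
Ldha: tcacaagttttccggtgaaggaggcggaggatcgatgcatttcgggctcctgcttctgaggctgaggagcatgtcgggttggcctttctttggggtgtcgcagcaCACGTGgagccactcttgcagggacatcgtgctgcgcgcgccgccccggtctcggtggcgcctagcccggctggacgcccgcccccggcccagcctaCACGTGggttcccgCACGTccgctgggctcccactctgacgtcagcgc
Pgk1: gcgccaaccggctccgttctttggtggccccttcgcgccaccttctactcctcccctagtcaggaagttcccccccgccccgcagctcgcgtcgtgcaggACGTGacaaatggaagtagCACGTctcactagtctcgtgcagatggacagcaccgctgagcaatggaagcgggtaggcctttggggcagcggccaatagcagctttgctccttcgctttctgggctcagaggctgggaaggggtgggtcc
There were 4 matches in the Ankrd37 window, 5 in Bnip3, 2 in Egln1, 5 in Ldha and 2 in Pgk1. Ldha has a second RefSeq start, whose window (chr7:46846832-46847081, not shown) held 1 match, and the other genes shown have 1 window each. Windows were given for 30 of the 33 members, and 27 of these held a match in at least 1 window. By window, 35 of 43 member windows (81.4%) held a match, against 12679 of 32851 windows of all genes (38.6%). Both motifs hold CG, and the median GC content was 62.8% in the member windows and 52.4% in all windows. A match is a run of letters and not a measured binding site.

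The wild-type library held 6500 barcodes and 61130806 UMIs (unique transcript molecules), and the mutant library 12326 barcodes and 100135532 UMIs. After filtering, 6108 and 8670 barcodes were kept, 17 of whose barcode sequences occurred in both libraries. Clusters were named from marker genes, so each name below means "epithelium-like" and so on. The epithelial class held 1626 wild-type and 2068 mutant barcodes, mesenchyme 3169 and 5639, glia 439 and 450, neurons 426 and 68, endothelium 135 and 121, pericytes or smooth muscle 84 and 84, and macrophages 71 and 167. All 9 epithelial markers reached 10 CPM in both libraries, where CPM is a gene's UMIs scaled to the class total. Pairs of values below give the wild type first and the mutant second. The macrophage class was led by S100a8 and S100a9, which are neutrophil markers, and its summed neutrophil markers were 3947 CPM in the wild type, against 10240 in the mutant. Erythroid cells and the few pigment cells were left out of the comparison. Ptch1 itself was at 29.0 CPM in wild-type epithelium and 184 CPM in mutant epithelium. The sources used here do not give which exons the floxed allele loses, so these 3′ counts do not check the deletion.

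Many barcodes carried RNA of other lineages, and unequally between libraries. In the epithelium 65.7% of wild-type and 36.4% of mutant barcodes were mixed, meaning that over 0.05% of their UMIs came from a set of markers of other lineages. Summed mesenchymal markers in the epithelium were 1158 CPM in the wild type (9 of 10 markers at 10 CPM or more) and 408 CPM in the mutant (4 of 10), with no marker at 0. Wild-type epithelial barcodes had a median depth of 7812 UMIs, and mutant ones of 3709. Epithelial medians and the values of some members are therefore given also without mixed barcodes, and this definition was set after seeing the data.

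The order of cell classes was the same at the top for most members in both libraries. This was not counted over all genes, so whether it is particular to the members was not tested. Of the 33 members, 22 were highest in the same of 7 classes in both, and for 14 of these the interval of the highest class lay apart from that of the second in both libraries. The epithelium was such a class for 5 members, neurons for 3, endothelium for 4 and macrophages for 2.

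**Figure D1:**
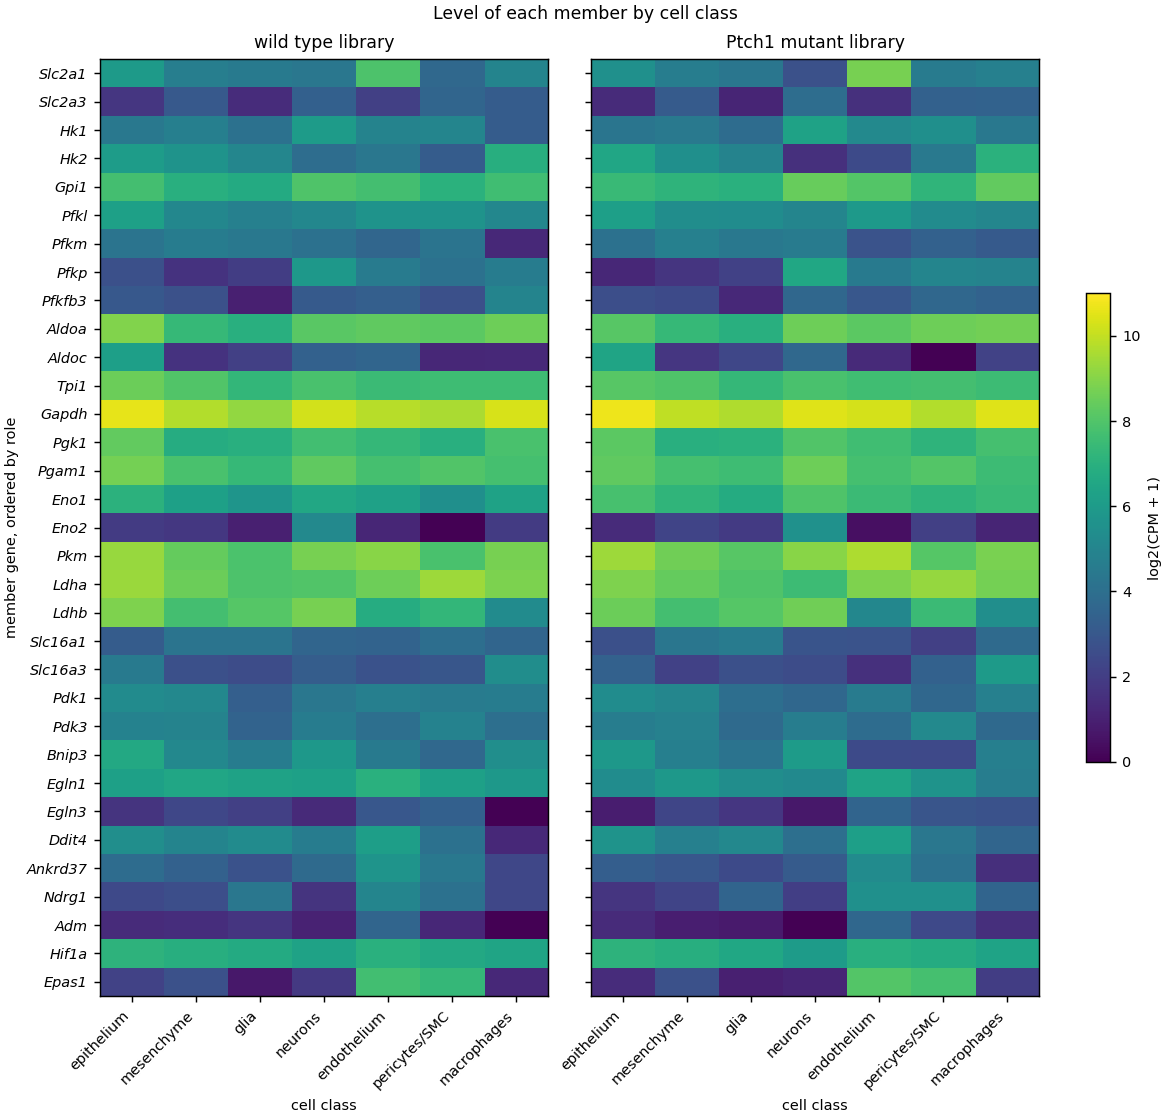
Level of each member (rows, ordered by role) in 7 cell classes (columns) of the wild-type and mutant libraries, as log2(CPM + 1). Slc2a1 and Epas1 are brightest in endothelium, Aldoc in epithelium, Eno2 and Pfkp in neurons, in both libraries.

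Slc2a1, which encodes the glucose transporter GLUT1, was highest in endothelium, at 244 CPM (95% Poisson interval 221 to 270, 383 UMIs) in the wild type, against 424 CPM (400 to 450, 1121 UMIs) in the mutant. The second class was the epithelium, at 63.5 and 45.4 CPM. In the wild type 50.4% of endothelial barcodes were mixed, against 2.48% in the mutant, and 60 of the 135 wild-type barcodes were in a cluster with 0 mutant barcodes. In the endothelial cluster that both libraries filled, with 75 and 121 barcodes, Slc2a1 was at 298 and 424 CPM, a log2 ratio of 0.51, against 0.79 over the class. Slc2a3, which encodes GLUT3, had its highest level in pericytes or smooth muscle in the wild type, at 10.9 CPM, and in neurons in the mutant, at 14.1 CPM, with intervals that overlapped those of the second class.

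Hexokinases, which trap glucose as glucose 6-phosphate, divided by class. Hk1 was highest in neurons, at 64.1 CPM in the wild type, against 80.5 CPM in the mutant. Hk2 was highest in macrophages, at 117 CPM (93.5 to 145, 85 UMIs) and 129 CPM (113 to 147, 219 UMIs). Of the UMIs of both genes together, Hk2 had 93.4% and 86.6% in macrophages, and 18.3% and 2.24% in neurons. Without mixed barcodes, which were 74.9% of wild-type and 7.35% of mutant neurons, Hk2 was at 2.55 and 1.96 CPM in neurons and Hk1 at 76.2 and 84.2 CPM. In the epithelium the Hk2 share was 76.8% and 82.8%.

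Isoenzymes of phosphofructokinase, aldolase, enolase and lactate dehydrogenase also had class-specific shares. Pfkp, the platelet-type phosphofructokinase, was highest in neurons, at 56.8 and 92.2 CPM, and Pfkl, the liver type, in the epithelium, at 74.8 and 72.6 CPM. Aldoc, aldolase C, was highest in the epithelium, at 72.1 CPM (68.2 to 76.1) in the wild type, against 85.8 CPM (81.8 to 89.9) in the mutant. No other class passed 12.3 CPM of Aldoc in either library. Eno2, the neuronal enolase, was at 35.0 and 46.1 CPM in neurons, against at most 3.74 CPM elsewhere. Ldha had 92.3% and 91.0% of the Ldha and Ldhb UMIs in macrophages, 57.5% and 56.2% in the epithelium, and 37.7% and 32.1% in neurons. Tpi1, Gapdh and Pgk1, enzymes of the middle steps, were highest in the epithelium in both libraries, Gapdh at 1532 and 1711 CPM. Slc16a3, which encodes the lactate exporter MCT4, was highest in macrophages, at 41.3 and 61.9 CPM.

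The remaining members had less distinct orders. Gpi1, glucose phosphate isomerase, was highest in neurons in both libraries, at 252 and 352 CPM. Pfkm, the muscle-type phosphofructokinase, was highest in mesenchyme, at 23.5 and 26.4 CPM, and Slc16a1, which encodes the monocarboxylate carrier MCT1, in glia, at 18.0 and 22.6 CPM. Pdk1, a kinase that inhibits pyruvate dehydrogenase, was highest in the epithelium, at 38.9 and 40.2 CPM. Ldha was highest in pericytes or smooth muscle, at 675 and 617 CPM, and Adm, the vasodilator peptide adrenomedullin, in endothelium, at 10.9 and 11.7 CPM. For all 6 the interval overlapped that of the second class in at least 1 library. Pfkfb3, which makes an activator of phosphofructokinase, was highest in macrophages in the wild type, at 30.3 CPM, and in pericytes or smooth muscle in the mutant, at 11.9 CPM. Pgam1, Pkm and Pdk3 also had different highest classes in the 2 libraries.

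The HIF alpha subunits were distributed differently. Hif1a ranged from 80.3 to 138 CPM over the 7 classes of the wild type and from 64.6 to 138 CPM in the mutant. Epas1, which encodes HIF-2 alpha, was at 202 CPM in wild-type and 264 CPM in mutant endothelium, and at 160 and 213 CPM in pericytes or smooth muscle. The intervals of these classes overlapped in both libraries, and Epas1 did not pass 5.71 CPM in any other class. Of the Hif1a and Epas1 UMIs, Epas1 had 61.8% and 68.2% in endothelium. Among the 7 members known to respond to low oxygen or stress, 3 were highest in endothelium with intervals apart in both libraries. These were Egln1 at 124 and 82.5 CPM, Ddit4 at 70.8 and 72.3 CPM and Ankrd37 at 51.0 and 38.6 CPM. Adm was highest there too, with overlapping intervals in the mutant. Bnip3 was highest in the epithelium in the wild type, at 97.4 CPM, and in neurons in the mutant, at 63.9 CPM. Egln3 and Ndrg1 were highest in pericytes or smooth muscle in 1 library each and in endothelium in the other.

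In the epithelium, all 33 members had at least 10 UMIs over both libraries, and 26 were lower and 7 higher in the mutant library. These counts hold members whose fold intervals included 1, such as Hif1a and Adm. The share of all genes that were lower is not given here. Genotype ratios are log2((CPM mutant + 1)/(CPM wild type + 1)), which understates changes of low genes. The median over the members was -0.36, against 0.03 over all 16308 genes with that many UMIs, and -0.20 without mixed barcodes, against 0.03. By the full marker lists, the planned definition of a mixed barcode, 87.1% of the epithelial class was mixed in the wild type, against 62.7% in the mutant, and without those barcodes the median was -0.0737, against -0.0122 over all genes. Over the alternative settings the median ran from -0.39 to -0.07, and it was -0.22 over the 3 clusters that held at least 50 barcodes of each library. None was at least 2-fold higher, where 2.16% of all genes were, and 2 were at least 2-fold lower, where 6.11% of all genes were. The members' count of 2-fold lower genes is thus near the background. With classes taken from the marker UMIs of each barcode, Epas1 was 2-fold higher, at a log2 ratio of 1.40, Slc16a3 and Eno2 were 2-fold lower, at -1.04 and -1.03, and Pfkp was at -0.68. In the main setting Epas1 went the other way, at -0.77 on 63 and 34 UMIs. It was below 0 in 11 of the 14 settings where it had enough UMIs, the main one included. The 44 nuclear-encoded genes of oxidative phosphorylation, taken for comparison, had a median of -0.22 with 41 of 44 below 0, and -0.03 without mixed barcodes.

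**Figure D2:**
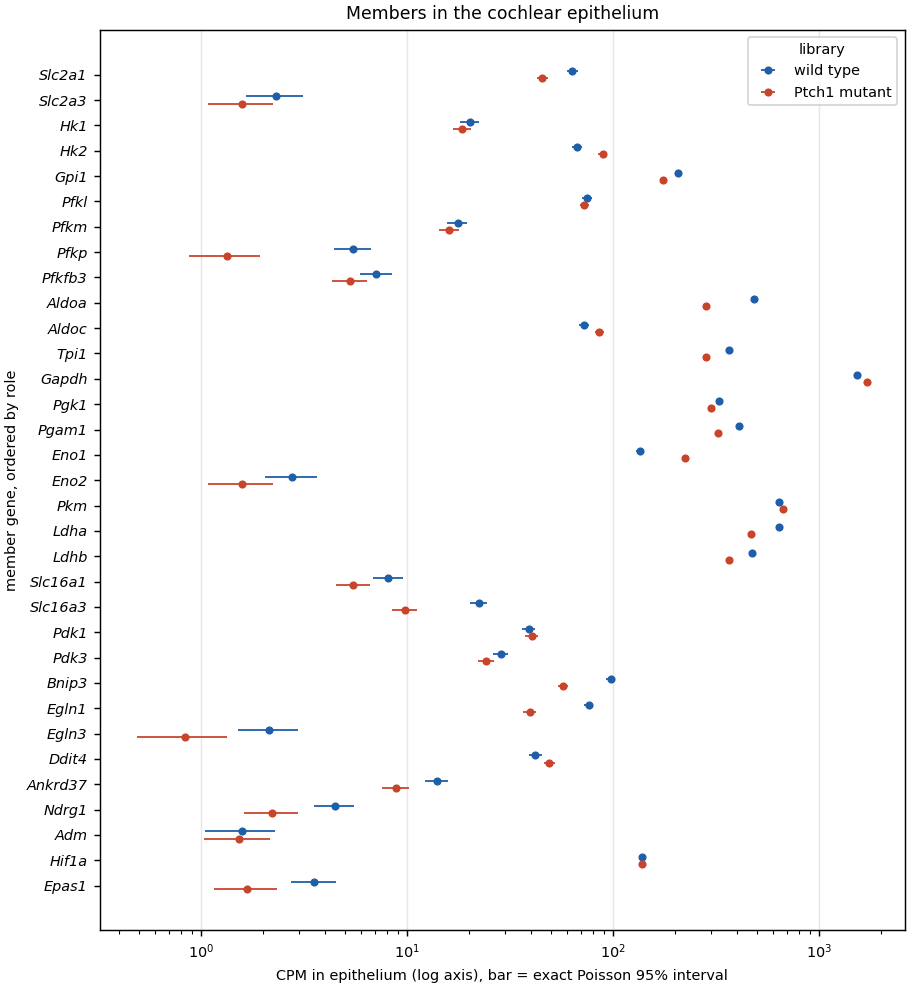
CPM of each member in the epithelium (log axis) in the wild-type (blue) and mutant (red) libraries, with exact Poisson 95% intervals. Most red points lie left of the blue ones, Eno1 and Hk2 lie right, and Hif1a coincides at 138 CPM.

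The 2 members past 2-fold were Slc16a3 (chr11:120948480-120960868, plus strand, mm10) and Pfkp (chr13:6579768-6648777, minus strand). Slc16a3 was at 22.2 CPM (395 UMIs, 20.1 to 24.6) in the wild type, against 9.74 CPM (198 UMIs, 8.43 to 11.2) in the mutant, a log2 ratio of -1.11, and at 26.9 and 9.85 CPM without mixed barcodes. Pfkp was at 5.46 CPM (97 UMIs) and 1.33 CPM (27 UMIs), a log2 ratio of -1.47. Without mixed barcodes Pfkp was at 2.91 and 1.20 CPM, a log2 ratio of -0.83. In the epithelial cluster led by Tecta and Tectb Pfkp had 1 and 13 UMIs, at 0.707 and 2.02 CPM, so that the mutant value was the higher one there. Pfkp was highest in neurons, and summed neuronal markers in the epithelium were 614 CPM in the wild type, against 329 CPM in the mutant. Their part in the Pfkp value was not tested.

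Among the abundant enzymes, Aldoa differed most over the whole epithelial class. Of its barcodes, 610 of 1626 wild-type and 700 of 2068 mutant ones were in clusters with at least 50 barcodes of each library. The folds in this paragraph therefore also compare different mixes of clusters. Aldoa, the main aldolase (chr7:126795234-126800751, minus strand), was at 483 CPM (8572 UMIs) in the wild type, against 282 CPM (5731 UMIs) in the mutant, 0.584 times the wild-type level (0.565 to 0.604). Aldoc was at 72.1 and 85.8 CPM, and its share of aldolase UMIs was 13.0% in the wild type, against 23.3% in the mutant. Ldha was at 640 and 468 CPM, 0.73 times (0.71 to 0.75), Ldhb at 0.769 times, Tpi1 at 0.771 times and Pgam1 at 0.785 times. Pkm, pyruvate kinase, was at 1.05 times and Gapdh at 1.12 times the wild-type level. Slc2a1 was at 0.715 times (0.655 to 0.781). Over 15 settings, the main one included, log2 ratios ran from -0.82 to -0.45 for Aldoa and from -0.495 to -0.14 for Ldha. They ran from -0.42 to -0.10 for Ldhb, -0.42 to 0.0025 for Tpi1, -0.39 to -0.03 for Pgam1 and -0.95 to -0.15 for Slc2a1. Without mixed barcodes the median of the 7 members from Gpi1 to Aldoc went from -0.24 to -0.16. That of the 7 members from Tpi1 to Pkm went from -0.13 to 0.23. Hk2 was higher, at 66.8 CPM in the wild type, against 88.9 CPM in the mutant, but at 88.1 and 91.2 CPM without mixed barcodes. The fold intervals of Slc2a3, Hk1, Pfkl, Pfkm, Pdk1, Adm and Hif1a included 1.

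Of the 7 hypoxia response genes, 6 had ratios below 0 in the epithelium, with a median of -0.76, and -0.28 without mixed barcodes. Bnip3, which encodes a mitochondrial protein of mitophagy, was at 97.4 CPM (92.8 to 102) and 57.0 CPM (53.8 to 60.4), a log2 ratio of -0.76 and, without mixed barcodes, -1.07. Egln1, which encodes the HIF prolyl hydroxylase PHD2, was at 76.1 and 39.3 CPM, a log2 ratio of -0.94. Ankrd37 was at 13.9 and 8.81 CPM, a log2 ratio of -0.60. Ddit4, an inhibitor of mTORC1 signalling, was the member above 0, at 42.0 and 49.1 CPM. Egln3 and Ndrg1 had log2 ratios of -0.77 and -0.76, and of -0.28 and -0.16 without mixed barcodes. Adm had 28 and 31 UMIs, and its difference was not detectable at this depth. Hif1a was at 138 CPM in both libraries, but at 174 and 138 CPM without mixed barcodes.

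In 2 epithelial sub-clusters both libraries had at least 50 barcodes, with like shares of mixed barcodes and median depths of 8258 to 10349 UMIs. Both resemble medial duct cells of Kölliker's organ by their markers. The genes given for them were chosen after their values were seen. In the sub-cluster led by Pla2r1, Otoa and Smoc2, with 88 wild-type and 291 mutant barcodes, 11.4% and 12.7% were mixed. Bnip3 was there at 116 CPM (97.0 to 138) and 68.1 CPM (60.8 to 76.1), and Egln1 at 60.7 CPM (47.2 to 77.0) and 35.5 CPM (30.3 to 41.3), with intervals apart for both. Aldoa was at 320 CPM (287 to 355) and 305 CPM (290 to 321), and Ldha at 454 CPM (415 to 495) and 484 CPM (464 to 504), with overlapping intervals for both.

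In the sub-cluster led by Itga8, Tecta and Igfbp3, with 69 and 197 barcodes, 20.3% and 22.3% were mixed. All 5 of the following were lower in the mutant with intervals apart there. Bnip3 was at 147 and 70.9 CPM, Egln1 at 96.3 and 38.5 CPM, Slc16a3 at 54.8 and 16.0 CPM, Aldoa at 517 and 377 CPM, and Ldha at 789 and 644 CPM. Bnip3 and Egln1 were thus lower in both sub-clusters, and Aldoa and Ldha in the second. Slc16a3 was lower in the second and is not given for the first.

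Other sub-clusters held mostly 1 library and give levels only. Slc16a3 ran from 3.10 to 56.9 CPM over the wild-type sub-clusters with at least 50 barcodes, and it did not pass 16.0 CPM in any such mutant one. Some of these wild-type sub-clusters were led by markers of neurons, macrophages, mesenchyme, endothelium or erythroid cells. The wild-type range is therefore not of epithelial RNA alone.

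In mesenchyme, all 33 members had at least 10 UMIs, 14 above and 19 below 0, with a median of -0.04 against 0.04 over all genes. No member was 2-fold higher or lower, where 0.473% of all genes were higher and 0.605% lower. Aldoa was at 166 and 162 CPM and Ldha at 370 and 333 CPM. The 7 hypoxia response genes were all below 0, from -0.66 for Egln1 to -0.01 for Egln3, with a median of -0.38. Egln3 was above 0 in 8 of 15 settings. A list of 24 other genes known to be induced by low oxygen did not share this direction in mesenchyme. Of these, 15 were above and 9 below 0, with a median of 0.07. In glia 31 members had at least 10 UMIs, with a median of 0.03 against 0.01 over all genes. Eno1 was the 1 member at least 2-fold higher, at 51.7 CPM (158 UMIs) and 107 CPM (449 UMIs), a log2 ratio of 1.03 and, without mixed barcodes, 0.97, where 2.1% of all genes were higher, and no member was 2-fold lower, where 1.49% were. The 7 hypoxia response genes were again below 0, with a median of -0.46, though intervals of the fold included 1 for all but Egln1 and Ndrg1. Of the 24 other genes, 21 had at least 10 UMIs in glia, 12 above and 9 below 0, with a median of 0.03.

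**Figure D3:**
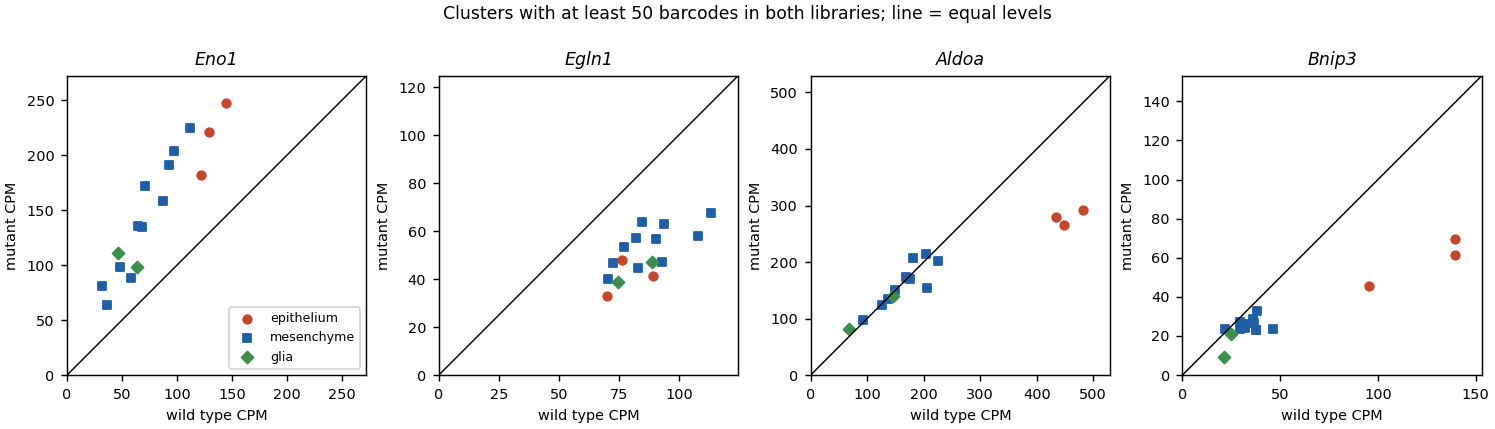
CPM in the wild-type (x axis) and mutant (y axis) libraries of 4 members in each cluster with at least 50 barcodes in both (3 epithelial, 11 mesenchymal, 2 glial), with a line at equal levels. Every cluster lies above the line for Eno1 and below it for Egln1, while for Aldoa the 3 epithelial clusters lie below and the others near the line.

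Cluster by cluster, Aldoa was lower in the mutant in 3 of 3 epithelial clusters, with log2 ratios from -0.76 to -0.63, and in 5 of 11 mesenchymal clusters, from -0.42 to 0.19. Bnip3 was lower in 3 of 3 epithelial clusters, from -1.17 to -0.99, and in 10 of 11 mesenchymal clusters. Slc16a3 was at 24.7 and 3.90 CPM in the epithelial cluster led by Ecrg4 and Epyc, at 50.2 and 15.8 CPM in that led by Tecta and Tectb, and at 6.38 and 6.04 CPM in that led by Oc90 and Cnmd. The difference of Slc16a3 was thus in the first and the second of these clusters. At Leiden resolution 2, a cluster led by Epyc and Calb1 held 180 wild-type and 0 mutant barcodes, and a cluster led by Ecrg4 and Smoc2 held 179 and 216. Among the epithelial sub-clusters, that led by Calb1 and Epyc held 196 wild-type and 0 mutant barcodes. The overlap of these barcodes with the cluster led by Ecrg4 and Epyc was not counted. The Aldoa, Bnip3 and Slc16a3 ratios of that cluster are therefore not shown to compare like cells.

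In every class, 2 members differed the same way. Eno1, the widely expressed enolase (chr4:150236721-150248879, plus strand), was at least 1.5-fold higher in the mutant in all 7 classes, from 0.72 in the epithelium to 1.67 in pericytes or smooth muscle. Egln1 was at least 1.5-fold lower in all 7, from -0.59 in endothelium to -1.19 in macrophages. Of 8587 genes with at least 10 UMIs in all classes, of which 26 were members, 0.128% were so higher and 0.186% so lower. Others among these genes were the mitochondrially encoded mt-Co1, mt-Co3 and mt-Atp8, which were higher, and Stmn1, Snhg3 and rows named as pseudogenes such as Rpl10-ps3 and Ftl1-ps1, which were lower. The matrix headers name Cell Ranger 6.0.0 for the wild type and 5.0.1 for the mutant, and the sample descriptions name different kit versions. Their part in these 2 results was not tested.

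**Figure D4:**
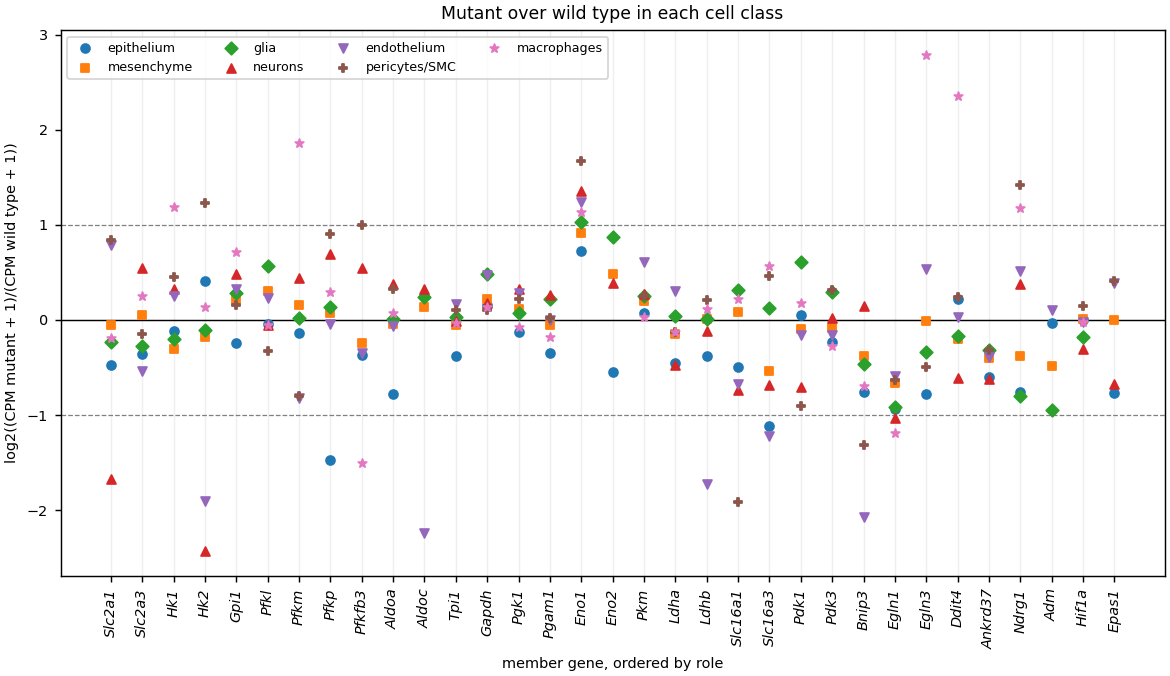
Log2 ratio of mutant over wild type (y axis) for each member with at least 10 UMIs (x axis) in 7 cell classes (markers), with dashed lines at 2-fold. All 7 points lie above 0 for Eno1 and below 0 for Egln1, and those of Hk2 and Bnip3 spread widely over the small classes.

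Eno1 shares most of its transcript with Eno1b, with 1643 of 1652 aligned bases identical (99.5%), so reads of the 2 genes are hard to separate and the Eno1 values are uncertain. Eno1b had 20.0% of their joint UMIs in the wild-type epithelium and 4.60% in the mutant epithelium. Over the 7 classes this share was 11.8% to 25.6% in the wild type, against 2.26% to 5.07% in the mutant. The sum of both genes had log2 ratios above 0 in all 7 classes, from 0.47 in the epithelium, at 169 and 234 CPM, to 1.28 in pericytes or smooth muscle. In the epithelium the sum was below the 1.5-fold that Eno1 alone passed in every class. In glia and macrophages, where Eno1 alone was past 2-fold, the sum was below it, at log2 ratios of 0.84 in both.

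**Figure D5:**
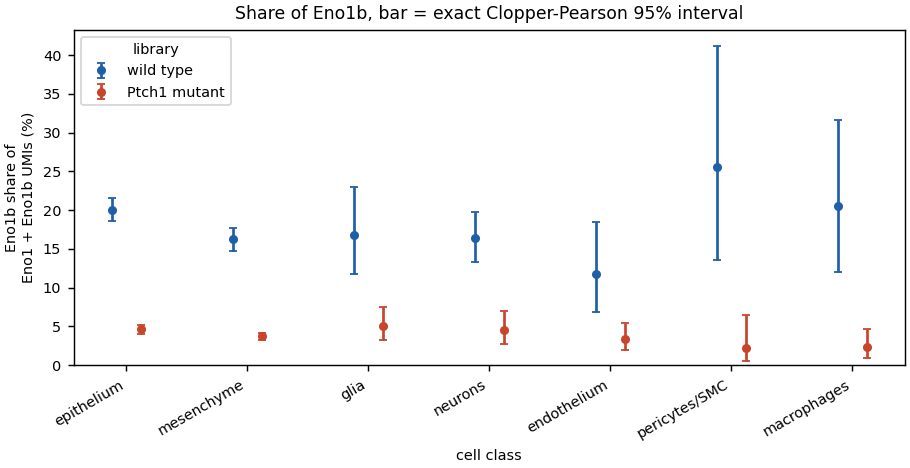
Share of Eno1b in the summed Eno1 and Eno1b UMIs (%) in 7 cell classes of the wild-type (blue) and mutant (red) libraries, with exact Clopper-Pearson 95% intervals. The wild-type intervals lie above the mutant ones in every class.

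Small classes gave further ratios past 2-fold on few UMIs. In neurons 31 members had at least 10 UMIs, with 1 higher (Eno1), where 2.69% of all genes were, and 3 lower (Slc2a1, Hk2 and Egln1), where 13.4% were. Slc2a1 had 93 and 9 UMIs there, and Hk2 had 67 and 3. Without mixed barcodes, Hk2 was at 2.55 and 1.96 CPM and Slc2a1 at 10.2 and 5.88 CPM. In endothelium 32 did, with 1 higher (Eno1), where 2.75% of all genes were, and 5 lower (Hk2, Aldoc, Ldhb, Slc16a3 and Bnip3), where 9.57% were. Ldhb was at 111 and 32.9 CPM there, but at 25.7 and 33.1 CPM without mixed barcodes. Aldoc was at 10.9 and 1.51 CPM, but at 1.03 and 1.52 CPM without them. Hk2 and Slc16a3 had no UMI in the 67 unmixed wild-type endothelial barcodes, which allows up to 3.09 CPM, and in the mutant ones Hk2 was at 4.57 CPM and Slc16a3 at 1.90 CPM. Bnip3 was at 10.3 and 4.57 CPM without them.

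In pericytes or smooth muscle 30 members had at least 10 UMIs, with 4 higher (Hk2, Pfkfb3, Eno1 and Ndrg1), where 4.11% of all genes were, and 2 lower (Slc16a1 and Bnip3), where 3.82% were. Ndrg1, a stress-induced gene, had 12 and 42 UMIs, a fold of 2.78 (1.44 to 5.81). In macrophages 28 did, with 6 higher (Hk1, Pfkm, Eno1, Egln3, Ddit4 and Ndrg1), where 7.64% of all genes were, and 2 lower (Pfkfb3 and Egln1), where 3.5% were. Egln3 had no UMI in the wild type, which allows up to 4.13 CPM, and 10 UMIs in the mutant, at 5.89 CPM (2.83 to 10.8), so that a difference was not detectable at this depth. Ddit4 had 1 and 19 UMIs there, a fold of 8.13 (1.29 to 338). Summed mast cell markers in the macrophage class were 366 CPM in the wild type, against 3844 CPM in the mutant, and their part in these values was not tested.

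The other genes of these pathways had list medians between -0.19 and 0.12 in the epithelium. Of 24 further hypoxia-induced genes, none was 2-fold higher, where 2.16% of all genes were, and 1 was lower, where 6.11% were, with a median of -0.16. The lower one was Bhlhe40, a transcriptional repressor, at 6.08 and 2.07 CPM, and the highest was Zfp395, at 12.7 and 21.8 CPM. Of 11 further glycolytic isoenzymes none was higher and 2 were lower, against the same shares of all genes, Eno1b and the muscle-type mutase Pgam2, the latter at 3.49 and 0.394 CPM. The lists of HIF regulators, carriers, pyruvate entry and the pentose phosphate pathway had medians of 0.03, -0.19, -0.04 and 0.12, with no member past 2-fold. Mpc1, a subunit of the mitochondrial pyruvate carrier, was at 69.7 and 48.0 CPM, and Pcx, pyruvate carboxylase, at 6.19 and 11.3 CPM.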

How the data were processed

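Dissociated cochleae were sequenced with a 10x Genomics 3′ kit. The authors deposited raw UMI counts per gene and barcode. Per the submitters' processing notes, both libraries went through Cell Ranger 6.0.0 on mm10, while per the file headers the mutant counts came from 5.0.1. The cell calling step was not given in the sources used here.

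Filters of 1000 UMIs, 500 genes and 10% mitochondrial UMIs kept 6440 wild-type and 9373 mutant barcodes. Mutant barcodes reached down to 500 UMIs before filtering and wild-type barcodes to 3352. Scrublet's automatic threshold called 0 doublets in each library and so had not worked, and the top-scored 0.8% per 1000 barcodes were removed (332 and 703). Clustering used scanpy 1.11.5 and igraph 0.11.9 with 2000 variable genes, none of them a member, 30 principal components, 15 neighbours and Leiden resolution 1, without correction between libraries. Counts were summed per class and library and given as CPM with exact Poisson 95% intervals (scipy 1.17.1). Genes needed 10 UMIs over both libraries, the pseudocount was 1 CPM, and a call was a 2-fold ratio without a test. Ratios and intervals were run on simulated Poisson counts with known folds. Such counts hold counting error only, so the run says nothing about differences between embryos or libraries. Members past 2-fold or highest in a class are named with values, and 2 rows with the symbol Aldoa were summed. The members, marker lists and other lists were chosen with earlier results of these data known. Positions are from GENCODE vM21, in which several members overlap a gene of the other strand, such as Ankrd37 with Ufsp2 and Lrp2bp. Promoters are from RefSeq. There were 11 planned and 3 added alternative settings.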

Additional observations from a re-analysis of the deposited data

How the results depend on the processing

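Across the 14 alternative settings, the epithelial median of the members kept its sign, and it came closest to 0, at -0.0737, when barcodes were called mixed by the full marker lists. The count of members past 2-fold in the epithelium was 0 with a pseudocount of 5 CPM, 1 without mixed barcodes by the full lists and 5 by the mean CPM of each barcode, and in mesenchyme it was 1 without doublet removal. With classes taken from marker UMIs of each barcode it was 3 in the epithelium, 1 of them higher (Epas1), and in glia that setting gave 0 higher and 1 lower (Ndrg1, at -1.09), with Eno1 at 0.77. In glia the count was 0 with a pseudocount of 5 CPM, without doublet removal and without mixed barcodes by the narrower marker set, also with a common UMI floor. It was 2 without mitochondrial, ribosomal protein and haemoglobin genes in the total, 2 without mixed barcodes by the full lists and 3 by the mean CPM of each barcode. The glial median turned to -0.0575 when classes were taken from marker UMIs of each barcode. The cause of these changes was not tested. Of 1334 values of single members in epithelium, mesenchyme and glia, 1142 stayed within their counting interval and 192 moved. Members past 2-fold in the main setting, 2 in epithelium, 0 in mesenchyme and 1 in glia, did not change sign, and these are few. Others did, such as Epas1 in the epithelium, at up to 1.40, and Pdk1 there, above 0 in 9 settings and below 0 in 6. Eno1 was above 0 and Egln1 and Bnip3 below 0 in 15 of 15 settings, the main one included, in epithelium, mesenchyme and glia, and Aldoa was below 0 in 15 of 15 in the epithelium. No paired analysis was possible because each genotype is 1 library, and for the same reason no library could be left out.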
